A study of Mus musculus with 24 samples.

Results

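The voltage-gated and other cation channel genes described here are the protein-coding genes of the deposited count tables whose symbols mark them as potassium channel (Kcn), sodium channel (Scn with an a or b subunit letter) or calcium channel (Cacna, Cacnb or Cacng) subunits. This choice by symbol and biotype gave 131 of the 32728 genes listed, and it used no measured value. By subunit role they comprise 10 pore-forming sodium channel alpha subunits, 4 sodium channel beta subunits, 10 pore-forming calcium channel alpha1 subunits, 4 alpha2delta, 4 beta and 5 gamma calcium channel subunits. The potassium channel genes comprise 17 Kv1 to Kv4 alpha subunits, 10 Kv modifier subunits, 5 Kv7 genes and 8 Kv10 to Kv12 genes. They also comprise 15 inward rectifiers (Kir), 14 tandem-pore leak channels (K2P), 12 calcium- or sodium-activated channel genes and 13 auxiliary subunits. The Kcnmb beta subunit genes were counted with the calcium- or sodium-activated channels and not with the auxiliary subunits.

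Voltage-gated sodium channels carry the upstroke of the neuronal action potential, and their beta subunits are single-pass glycoproteins that set gating and anchor the channel at the membrane. Voltage-gated calcium channels couple depolarisation to transmitter release, dendritic signalling and gene expression, with alpha2delta and beta subunits that carry the pore to the surface. Potassium channels repolarise the membrane, set the resting potential and limit repetitive firing, and in astrocytes the inward rectifier Kir4.1 takes up the potassium that active neurons release. Pore-forming channel subunits, and some but not all accessory subunits, are membrane proteins made in the endoplasmic reticulum (ER). Many of these membrane proteins are N-glycosylated there. Tunicamycin (TM) blocks the first step of N-glycan assembly, so unfolded glycoproteins build up in the ER. PERK, encoded by Eif2ak3, is the ER kinase that senses this load and phosphorylates the translation initiation factor eIF2.

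RNA was sequenced from primary mouse cultures labelled as neurons or astrocytes. All cells came from mice that carry loxP sites in both copies of the Perk gene, and all were transduced with a lentivirus. Active Cre recombinase gave the cultures called Perk KO and an inactive ΔCre gave those called WT, so WT cultures carry the floxed alleles and a virus too. At day 14 in vitro, cells received 5 µg/mL TM for 24 h, and controls received an equal volume of the solvent DMSO. For neurons and for astrocytes alike, 3 libraries each stood for Perk KO with TM, Perk KO control, WT with TM and WT control, 24 libraries in all. The labels number the 3 libraries of a group as biological replicates but do not state what separated them (animal, culture or dish), and the p-values here therefore describe the spread among these libraries, which may be technical.

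Library totals ranged from 16030022 to 25934747 counts, of which channel genes took 0.396 to 0.640% in neuron cultures and 0.0664 to 0.223% in astrocyte cultures. Levels below are CPM on library sizes adjusted by the trimmed mean of M-values (TMM), which makes libraries of different depth comparable. Eif2ak3 stood at 9.57 to 15.8 CPM in KO TM, 5.13 to 5.85 CPM in KO control, 127 to 141 CPM in WT TM and 33.2 to 39.5 CPM in WT control neuron cultures. In astrocyte cultures it stood at 11.2 to 15.6 CPM in KO TM, 5.87 to 7.57 CPM in KO control, 73.7 to 104 CPM in WT TM and 24.9 to 27.9 CPM in WT control, so every library matched its genotype label. The neuron cultures were mixed. In WT controls, 12 astrocyte markers summed to 3289 to 3552 CPM in neuron and 2344 to 3630 CPM in astrocyte cultures. In the same libraries, 15 neuronal markers summed to 8018 to 8411 CPM in neuron and 320 to 385 CPM in astrocyte cultures. All 15 were higher in neuron cultures, with a median log2 difference of 8.06 and a lowest of 2.06 (Map2). Whether the astrocyte cultures held neurons was not tested. Of the neuronal markers, Slc17a6 was at 0 in WT astrocyte cultures, and of the astrocyte markers Gjb6 was. In such bulk samples, fewer cells of a type and less RNA per cell cannot be told apart.

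The promoters of Kcnj10 and Kcnt2 are printed because, among called members with a mean of at least 100 counts, Kcnj10 had the widest fall and Kcnt2 the widest rise under TM in WT neuron and in WT astrocyte cultures. Kcnj10 encodes the glial inward rectifier Kir4.1, and Kcnt2 encodes the sodium-activated potassium channel Slick. The windows hold the 250 bases before the RefSeq transcription start in build GRCm38.p6, at chr1:172340960-172341209 for Kcnj10 and chr1:140245468-140245717 for Kcnt2, both on the plus strand. Capitals mark CCAAT boxes in either orientation (CCAAT or ATTGG).
Kcnj10: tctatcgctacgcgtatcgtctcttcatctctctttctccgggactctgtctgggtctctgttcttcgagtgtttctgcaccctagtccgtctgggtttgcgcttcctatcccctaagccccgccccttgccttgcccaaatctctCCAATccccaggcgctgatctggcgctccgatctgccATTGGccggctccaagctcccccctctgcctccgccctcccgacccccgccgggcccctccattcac
Kcnt2: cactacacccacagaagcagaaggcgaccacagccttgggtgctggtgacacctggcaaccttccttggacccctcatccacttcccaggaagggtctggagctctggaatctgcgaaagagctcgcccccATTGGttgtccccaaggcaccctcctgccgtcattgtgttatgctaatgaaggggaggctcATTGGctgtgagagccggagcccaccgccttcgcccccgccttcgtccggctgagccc
Both windows hold 2 CCAAT boxes, at -104 and -67 in Kcnj10 and at -119 and -58 in Kcnt2, a match that 33.8% of all 32851 promoter windows hold at least once. RefSeq promoters matched 96 of the 131 members (132 windows), of which 36 windows (27.3%) held a CCAAT box. The element bound by ATF4 with CHOP, TGATGNAAN on either strand, was found in 3.44% of all windows and in 4 member windows (Cacna1c, Kcnab1, Kcne2 and Scn9a). TGACGTGG, an element bound by XBP1 or ATF6, was found in 0.563% of all windows and in those of Kcna6, Kcnab2 and Kcnj13. The ER stress response element, a CCAAT box and a CCACG spaced by 9 bases, was found in 0.113% of all windows, and the cAMP response element TGACGTCA in 1.55%; each was found in 0 member windows. A match is a string of letters and not evidence of binding.

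Unstressed neuron and astrocyte cultures differed in most channel genes measured. In WT controls, 100 members averaged at least 1 CPM in neuron cultures and 62 in astrocyte cultures. Of 131 members, 104 passed the filter on low counts in this comparison, and 86 were higher and 10 lower in neuron cultures (adjusted p under 0.05, edgeR's quasi-likelihood test with Benjamini-Hochberg adjustment over all genes tested, as in every comparison here), against 35.8% higher and 35.2% lower of all genes tested (71.1% in either direction). Of the 67 members that averaged 10 counts or more in each culture type, 52 were higher and 8 lower in neuron cultures. The Kv modifier, calcium channel gamma, beta and alpha2delta, Kv7 and sodium channel beta members tested were each higher in neuron cultures without exception.

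Some channels of central excitability were close to 0 in astrocyte cultures. Kcnk9, encoding the leak channel TASK-3, had 8482 counts over the 3 WT control neuron libraries and 2 counts over the 3 astrocyte libraries, a depth-scaled ratio of 4748 (95% counting interval 1314 to 39209). Kcns2, encoding a silent Kv9 modifier subunit, had 1370 and 0 counts, at least 511-fold higher in neuron cultures if 3 counts are allowed over the astrocyte group. This interval and this limit cover counting error only.

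The 10 members lower in neuron than in astrocyte cultures were led by genes of low level. Scn7a, encoding the sodium-sensing channel Nax, was at 0.216, 0.108 and 0.397 CPM in neuron cultures and at 2.08, 1.91 and 1.53 CPM in astrocyte cultures. Kcnk10, encoding the mechano-sensitive leak channel TREK-2, had 30.4, 30.6 and 33.9 CPM in neuron cultures and 65.8, 74.9 and 67.9 CPM in astrocyte cultures, a log2 difference of -1.10 (SE 0.12, edgeR adjusted p = 3.46e-05). The groups did not overlap for either gene. Kcnk2, encoding its relative TREK-1, differed by -0.44 on the log2 scale (SE 0.14, edgeR adjusted p = 0.0174), a call lost when any of the 3 neuron libraries was left out (highest adjusted p 0.0588). Kcnj10 did not separate the culture types, at 297, 302 and 362 CPM in neuron cultures and 488, 380 and 297 CPM in astrocyte cultures (log2 difference -0.24, SE 0.18, edgeR adjusted p = 0.263).

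Per kilobase of exon, the levels had a different order in each culture type. In WT control neuron cultures the higher levels included Kcnj4 (71.2 CPM per kb), Kcnj10 (59.3), Kcnip3 (58.2), Kcnk1 (48.7), Kcnab2 (46.3), Scn2b (44.3), Scn3b (31.8), Cacnb3 (28.0) and Kcnf1 (27.5). In WT control astrocyte cultures they included Kcnj10 (71.9 CPM per kb), Kcne1l (29.3), Kcnk2 (22.7), Kcnk1 (21.7), Kcnd3 (12.9), Cacna1a (8.99), Kcnk10 (7.92), Kcnn3 (6.77) and Scn3b (6.56). Auxiliary subunits, inward rectifiers and leak channels thus held most of the top places, and pore-forming sodium channel subunits held none.

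**Figure D1:**
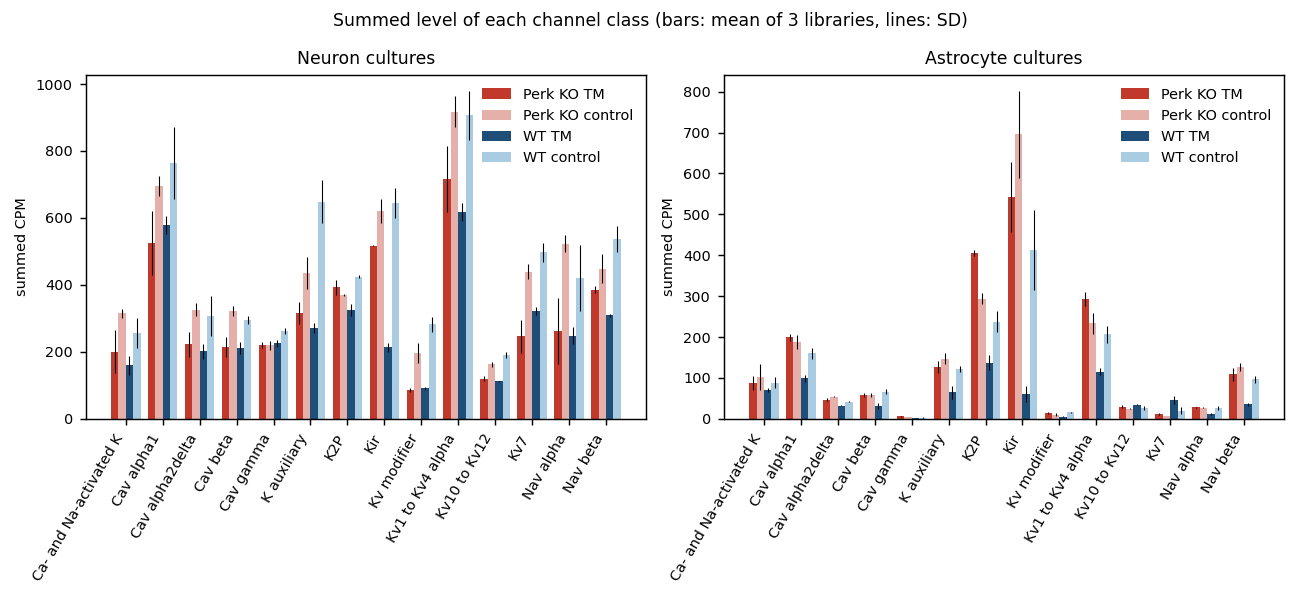
Summed level of each channel class (CPM), with neuron and astrocyte cultures in separate panels and KO TM, KO control, WT TM and WT control side by side. Bars are means of 3 libraries and lines are SD. In astrocyte cultures the Kir sum was 42.2 to 81.5 CPM in WT TM libraries and 321 to 515 CPM in WT controls. Kcnj10 alone made up most of that sum in each WT control library, and Kcnj4, another Kir gene, rose in the same comparison.

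Far more channel genes fell than rose under TM in WT neuron cultures. Of 103 members that passed the filter, 7 rose and 55 fell, against 27% and 24.8% of all 15546 genes tested. Among the 100 members that averaged 10 counts or more in both groups, 7 rose and 54 fell. The median log2 difference was -0.51 for the 103 members and 0.04 for all genes tested. Summed over the members, the level was 3832 to 3993 CPM in TM libraries and 6189 to 6791 CPM in controls. With any single library left out, 5 of the rises and 41 of the falls were called each time. The 15 neuronal markers moved too, at 3891 to 4107 CPM in WT TM neuron cultures and 8018 to 8411 CPM in controls (14 of 15 fell). Markers of astrocytes (10 of 11 tested fell, at 964 to 1069 CPM in TM and 3289 to 3552 CPM in controls), the oligodendrocyte lineage (8 of 9 fell and 1 rose, at 117 to 162 CPM and 509 to 587 CPM), microglia (4 of 6 fell, at 5.08 to 9.68 CPM and 18.6 to 37.1 CPM) and fibroblasts and mural cells (3 of 8 fell, at 143 to 173 CPM and 446 to 467 CPM) moved in the same comparison. The part of these lists in the channel result was not tested.

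Perk KO neuron cultures also had more falls than rises under TM, in fewer genes. Of 110 members tested, 3 rose and 33 fell, against 13.1% and 10.8% of all genes tested, with a median log2 difference of -0.32 for members and 0.02 for all genes. The summed member level was 4128 to 4919 CPM in KO TM and 5764 to 6163 CPM in KO control neuron cultures. The count of calls depended on single libraries: it was 56 without KO TM replicate 2, 17 without KO TM replicate 3, and 19, 21 and 20 without KO control replicates 1, 2 and 3. In every such repeat 2 rises and 15 falls were called. Scn1a stood at 49.3 CPM in KO TM replicate 2, beside 13.0 and 25.0 CPM in the other KO TM libraries. Over all genes, the chi-square per gene between KO TM libraries was 70.6 for replicates 1 and 2, 35.6 for 1 and 3 and 27.5 for 2 and 3. Neuronal markers summed to 4116 to 4648 CPM in KO TM and 6562 to 7129 CPM in KO control neuron cultures (11 of 15 fell), and of the astrocyte markers 4 of 12 rose and 1 fell, while 4 of 8 microglial markers fell.

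Of the 62 members called in WT and the 36 called in KO neuron cultures, 28 were called in both with the same direction, which is 45.2% of the WT and 77.8% of the KO calls, against 28.0% and 58.5% for all genes tested. These shared calls comprised 25 falls and the rises of Cacng3, Kcnk12 and Kcnk2, and 0 members were called in opposite directions. Over all genes tested, 333 were called in opposite directions, of 8055 called in WT and 3858 in KO. With the replicate number as a block, 25 members were called in the same direction and 1, Cacng5, in opposite directions. These were among 58 members called in WT and 35 in KO.

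**Figure D2:**
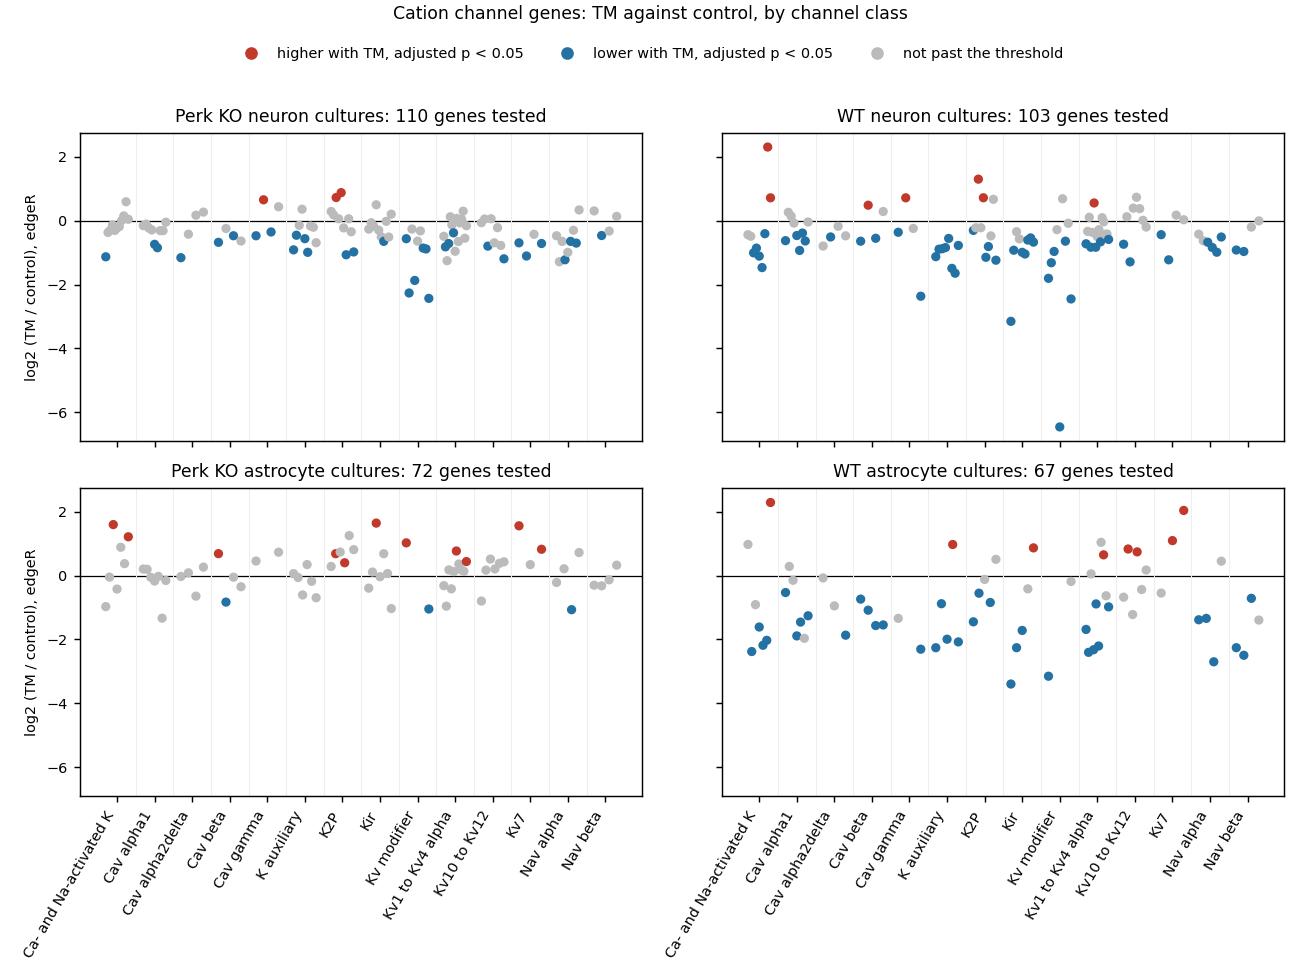
Log2 difference, TM over control, for every member tested, by channel class, in KO and WT neuron and astrocyte cultures. Red points were higher and blue points lower with TM at an adjusted p under 0.05, and grey points did not pass. Kcng4 in WT neuron cultures is the lowest point, where the 3 TM libraries held 1 count between them.

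Among pore-forming sodium channel subunits, Scn8a (Nav1.6, the main channel of the mature axon initial segment) fell in both genotypes. It had 73.5, 106 and 82.0 CPM in KO TM and 153, 138 and 148 CPM in KO control neuron cultures, and 98.4, 112 and 114 CPM in WT TM and 147, 173 and 192 CPM in WT control neuron cultures. TM and control libraries did not overlap in either genotype. The log2 differences were -0.70 (SE 0.14, edgeR adjusted p = 0.00992) in KO and -0.51 (SE 0.12, edgeR adjusted p = 0.0058) in WT. Scn2a (Nav1.2) had 74.9, 163 and 87.4 CPM in KO TM and 275, 247 and 261 CPM in KO control neuron cultures, and 101, 117 and 77.5 CPM in WT TM and 149, 134 and 236 CPM in WT control neuron cultures. Its falls of -1.22 in KO (SE 0.26, edgeR adjusted p = 0.0133) and -0.67 in WT (SE 0.23, edgeR adjusted p = 0.0341) were each lost without a single library, in KO control replicate 1 or TM replicate 3 and in WT TM replicate 1 or 3 (highest adjusted p 0.059 in KO and 0.12 in WT). Scn3a (Nav1.3) had a log2 difference of -0.99 in KO that missed the threshold and fell by 0.84 in WT (edgeR adjusted p = 0.0512 in KO and 0.0221 in WT, the WT call being lost without TM replicate 1 or 3). Scn1a (Nav1.1), the sodium channel of inhibitory interneurons, had log2 differences of -0.65 in KO and -0.63 in WT, neither past the threshold (edgeR adjusted p = 0.296 and 0.0739).

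Among the sodium channel beta subunits, Scn2b had 115, 126 and 111 CPM in KO TM, 186, 165 and 151 CPM in KO control, 90.9, 98.6 and 97.2 CPM in WT TM and 220, 213 and 185 CPM in WT control neuron cultures. It fell in both genotypes, by 0.46 in KO (SE 0.10, edgeR adjusted p = 0.0143) and by 0.96 in WT (SE 0.09, edgeR adjusted p = 3.68e-05), and in KO the call was lost without control replicate 1, control replicate 2 or TM replicate 3. Scn3b gave -0.32 in KO and -0.20 in WT and Scn4b 0.14 and -0.01, none past the threshold.

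In the calcium channel alpha1 group, 2 of 9 tested members fell in KO and 5 of 9 in WT neuron cultures, and 0 rose. Of all genes tested, 10.8% fell in KO and 24.8% in WT. Cacna1g (Cav3.1, a low-voltage T-type channel) had 19.9, 22.4 and 17.4 CPM in KO TM, 39.2, 31.9 and 39.6 CPM in KO control, 18.4, 17.5 and 15.7 CPM in WT TM and 32.0, 38.5 and 38.3 CPM in WT control neuron cultures. TM libraries lay below control libraries in both genotypes, with log2 differences of -0.85 in KO (SE 0.14, edgeR adjusted p = 0.00475) and -0.93 in WT (SE 0.12, edgeR adjusted p = 0.000338). Cacna1a (P/Q-type, the main presynaptic channel) fell by 0.63 in WT (SE 0.16, edgeR adjusted p = 0.0113), with 69.9, 81.2 and 102 CPM in TM and 124, 140 and 168 CPM in control libraries, and gave -0.15 in KO (SE 0.14, edgeR adjusted p = 0.46). The other T-type genes Cacna1h and Cacna1i fell by 0.39 and 0.63 in WT and gave -0.31 each in KO without passing the threshold, and Cacna1e (R-type) fell by 0.74 in KO and by 0.46 in WT. In WT the Cacna1e fall was lost without TM replicate 1 or 3 and the Cacna1h fall without control replicate 2 or any 1 TM library, and in KO the Cacna1e fall was lost without any 1 library but TM replicate 2 (highest edgeR adjusted p 0.0691, 0.0832 and 0.105). The L-type genes Cacna1c and Cacna1d and the N-type gene Cacna1b passed the threshold in neither genotype. Cacna1d overlaps Dcp1a on the opposite strand, a gene with 75.6% as many counts, and the library kit is not stated to mark strand.

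Calcium channel accessory subunits held both rises and falls. Cacng5, encoding a TARP that regulates AMPA receptors, had 58.1, 48.9 and 44.2 CPM in KO TM, 44.3, 40.2 and 30.8 CPM in KO control, 6.01, 7.59 and 6.35 CPM in WT TM and 43.9, 39.7 and 30.2 CPM in WT control neuron cultures. The 3 WT TM libraries stood below all 9 others. It fell by 2.37 in WT (SE 0.17, edgeR adjusted p = 1.15e-05), and the difference between the genotypes' responses was 2.77 (SE 0.24, edgeR adjusted p = 1.33e-05). Cacng3, a TARP gene of the same family, had 80.2, 71.7 and 73.5 CPM in KO TM, 53.0, 45.9 and 49.1 CPM in KO control, 107, 112 and 109 CPM in WT TM and 67.2, 78.0 and 75.3 CPM in WT control neuron cultures. It rose in both genotypes, by 0.66 in KO (SE 0.10, edgeR adjusted p = 0.0034) and 0.72 in WT (SE 0.08, edgeR adjusted p = 0.000159). Among beta subunits, Cacnb1 fell in both genotypes (log2 differences -0.68 in KO and -0.64 in WT) and so did Cacnb3 (-0.47 and -0.55), the KO call of Cacnb3 being lost without any of the 3 control libraries or TM replicate 3. Cacna2d1, encoding the alpha2delta-1 subunit that gabapentin binds, fell by 1.16 in KO (edgeR adjusted p = 0.0246, highest 0.0907 without any 1 control library or TM replicate 3) and gave -0.79 in WT (edgeR adjusted p = 0.0576).

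Among Kv1 to Kv4 pore-forming subunits, Kcna4 (Kv1.4, an inactivating A-type channel) fell by 0.72 in KO and 0.83 in WT. Kcna1 (Kv1.1) fell by 0.72 in WT and gave -0.49 in KO (edgeR adjusted p = 0.0512), while Kcna2 (Kv1.2) fell by 0.82 in KO, a call lost without control replicate 2 or 3 or TM replicate 3, and gave -0.33 in WT (edgeR adjusted p = 0.128). Kcnc1 (Kv3.1) and Kcnd2 (Kv4.2) did not pass the threshold in either genotype. Kcna6 (Kv1.6) rose by 0.56 in WT (SE 0.14, edgeR adjusted p = 0.0104), at 60.7, 53.6 and 67.3 CPM in WT TM and 37.5, 48.5 and 50.6 CPM in WT control neuron cultures.

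The Kv modifier subunits, which form no channel alone but join Kv2 pores and alter their gating, included the widest fall called in both genotypes. Kcnv1 (Kv8.1) had 10.5, 9.40 and 10.6 CPM in KO TM, 71.4, 45.9 and 53.2 CPM in KO control, 11.2, 10.9 and 7.67 CPM in WT TM and 61.5, 53.5 and 64.6 CPM in WT control neuron cultures. TM libraries lay below controls in both genotypes, with log2 differences of -2.43 in KO (SE 0.18, edgeR adjusted p = 0.000227) and -2.45 in WT (SE 0.17, edgeR adjusted p = 7.95e-06). The difference between them was -0.02 (SE 0.25, edgeR adjusted p = 0.968). Kcng1 (Kv6.1) had 4.27, 5.97 and 3.90 CPM in KO TM, 28.2, 24.3 and 17.5 CPM in KO control, 14.8, 14.8 and 17.4 CPM in WT TM and 41.9, 45.8 and 41.9 CPM in WT control neuron cultures. It fell further in KO, with log2 differences of -2.26 in KO and -1.32 in WT and a difference between them of -0.98 (SE 0.26, edgeR adjusted p = 0.0129). Kcnf1 (Kv5.1) fell further in WT, with 49.1, 41.5 and 50.5 CPM in KO TM, 85.1, 67.7 and 63.0 CPM in KO control, 32.0, 31.0 and 39.2 CPM in WT TM and 152, 136 and 107 CPM in WT control neuron cultures. Its fall was -0.56 in KO (lost without control replicate 1 or 2 or TM replicate 3) and -1.80 in WT, with the responses differing by 1.21 (SE 0.21, edgeR adjusted p = 0.00113). Kcng4 (Kv6.4) had 146 counts over the KO TM libraries, 1 count over the WT TM libraries and 122 counts over the WT control libraries. The depth-scaled KO TM to WT TM ratio was 132 (95% counting interval 23.3 to 5234). In all, 6 of 9 modifier genes tested fell in KO and 6 of 9 in WT, against 10.8% and 24.8% of all genes tested.

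The Kv7 genes encode the M-current that damps repetitive firing. Kcnq3 (Kv7.3) fell by 1.11 in KO (edgeR adjusted p = 0.0207, lost without any 1 control library or TM replicate 3) and by 1.23 in WT (SE 0.28, edgeR adjusted p = 0.00634). Of the 8 Kv10 to Kv12 genes, 2 fell in each genotype, against 10.8% of all genes tested in KO and 24.8% in WT. The WT count was near that share. Among these genes, Kcnh3 (Kv12.2) fell by 0.80 in KO and by 1.29 in WT. Its KO call was lost without control replicate 1 or 3 or TM replicate 3.

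Kcnj10, the inward rectifier of astrocytes, had the widest difference in TM response between genotypes of the neuron culture members with a mean of at least 100 counts. It had 288, 262 and 271 CPM in KO TM, 297, 338 and 381 CPM in KO control, 24.7, 26.2 and 46.7 CPM in WT TM and 297, 302 and 362 CPM in WT control neuron cultures. The WT TM libraries stood far below the other 9. It fell by 3.15 in WT (SE 0.24, edgeR adjusted p = 1.73e-05) and gave -0.26 in KO (SE 0.12, edgeR adjusted p = 0.141), a difference of 2.86 (SE 0.29, edgeR adjusted p = 2.88e-05). Astrocyte markers moved beside it: their sum was 3275 to 4340 CPM in KO TM, 4166 to 4367 CPM in KO control, 964 to 1069 CPM in WT TM and 3289 to 3552 CPM in WT control neuron cultures, with 4 of 12 higher and 1 lower under TM in KO and 10 of 11 lower in WT. Their part in the Kcnj10 result was not tested. Among neuronal inward rectifiers, the GIRK subunit gene Kcnj9 had 52.6, 59.1 and 58.6 CPM in KO TM, 58.8, 47.2 and 46.8 CPM in KO control, 29.5, 30.5 and 31.2 CPM in WT TM and 52.2, 54.4 and 53.9 CPM in WT control neuron cultures. It fell by 0.67 in WT, and the responses differed by 0.84 (SE 0.14, edgeR adjusted p = 0.000894). In all, 1 of 10 Kir genes tested fell in KO (Kcnj3, lost without any 1 control library or TM replicate 3) and 7 of 9 in WT. Of all genes tested, 10.8% fell in KO and 24.8% in WT.

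**Figure D3:**
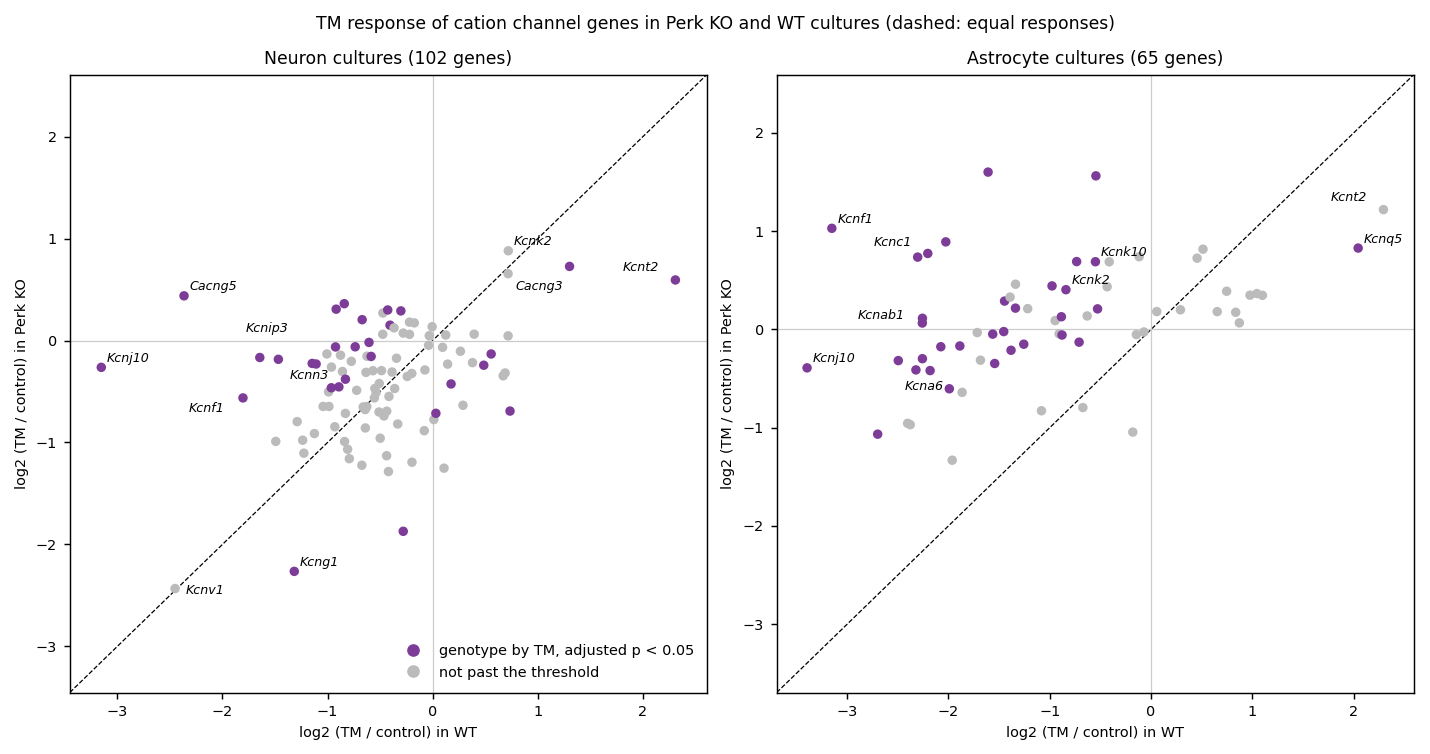
Log2 response to TM in Perk KO (vertical axis) against WT cultures (horizontal axis), for the 102 members drawn in neuron and the 65 in astrocyte cultures. Purple points passed an adjusted p of 0.05 for the difference between genotypes, the dashed line marks equal responses, and Kcng4 is not drawn because its WT TM libraries held 1 count. Kcnj10 lies at the far left near the zero line in both panels.

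The leak channel genes held 2 of the 3 rises shared by both genotypes, the third being Cacng3. Kcnk2 (TREK-1) had 172, 131 and 143 CPM in KO TM, 81.6, 90.8 and 78.0 CPM in KO control, 126, 111 and 122 CPM in WT TM and 84.3, 82.9 and 74.6 CPM in WT control neuron cultures. Every TM library lay above every control, with rises of 0.88 in KO (SE 0.12, edgeR adjusted p = 0.00245) and 0.72 in WT (SE 0.09, edgeR adjusted p = 0.000208). A pseudogene on the same strand, Pdcd5-ps, overlaps Kcnk2 and holds 13.5% as many counts, so reads could be shared. Kcnk12 (THIK-2, a channel that is silent at the surface in most assays) had 15.5, 15.4 and 19.8 CPM in KO TM, 10.0, 12.2 and 9.42 CPM in KO control, 21.0, 22.3 and 25.1 CPM in WT TM and 9.59, 11.1 and 10.0 CPM in WT control neuron cultures. It rose by 0.73 in KO (edgeR adjusted p = 0.0181, lost without control replicate 1 or 3 or TM replicate 3) and by 1.30 in WT (SE 0.13, edgeR adjusted p = 7.14e-05). Kcnk9 (TASK-3) fell, with 45.8, 77.8 and 64.2 CPM in KO TM, 127, 121 and 134 CPM in KO control, 54.2, 60.8 and 74.1 CPM in WT TM and 142, 159 and 191 CPM in WT control neuron cultures, log2 differences of -0.98 in KO and -1.24 in WT. Kcnk1 (TWIK-1) fell by 0.30 in WT, a call lost without any 1 library but control replicate 3 (highest edgeR adjusted p 0.137), and gave 0.29 in KO (edgeR adjusted p = 0.108).

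Among channels gated by internal calcium or sodium, Kcnn3 (SK3) had 33.2, 48.9 and 36.7 CPM in KO TM, 46.2, 48.0 and 45.0 CPM in KO control, 16.1, 18.4 and 14.0 CPM in WT TM and 48.5, 43.7 and 55.7 CPM in WT control neuron cultures. The WT TM libraries were the lowest of the 12, and KO TM and KO control libraries overlapped. It fell by 1.47 in WT (SE 0.15, edgeR adjusted p = 6.31e-05), and the responses differed by 1.25 (SE 0.22, edgeR adjusted p = 0.00135). Kcnt2 (Slick) had 6.69, 16.4 and 7.06 CPM in KO TM, 5.94, 6.11 and 8.42 CPM in KO control, 17.4, 20.5 and 14.2 CPM in WT TM and 3.88, 2.05 and 5.76 CPM in WT control neuron cultures. It had the widest rise of the WT neuron cultures among members above a mean of 100 counts, 2.31 (SE 0.33, edgeR adjusted p = 0.000471), while KO TM and KO control libraries overlapped. Kcnma1 (BK, the large-conductance calcium-activated channel) fell by 1.13 in KO (edgeR adjusted p = 0.0373, lost without any 1 control library or TM replicate 3) and gave -0.44 in WT (edgeR adjusted p = 0.206).

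All 8 tested genes of the auxiliary class fell in WT neuron cultures, against 4 of 9 tested in KO. Of all genes tested, 24.8% fell in WT and 10.8% in KO. The class leaves out the BK beta subunit genes (Kcnmb), of which Kcnmb4 fell in WT and Kcnmb2 was called in neither genotype. Kcnip3 (KChIP3, a calcium sensor that binds Kv4 channels and DNA) had 120, 83.6 and 72.4 CPM in KO TM, 134, 102 and 85.4 CPM in KO control, 70.9, 58.1 and 50.1 CPM in WT TM and 231, 217 and 171 CPM in WT control neuron cultures. It fell by 1.64 in WT (SE 0.15, edgeR adjusted p = 3.74e-05), and KO TM and KO control libraries overlapped. The responses differed by 1.44 (SE 0.29, edgeR adjusted p = 0.00305). Kcnip2 (KChIP2) fell in both, with 21.8, 27.9 and 20.6 CPM in KO TM, 54.3, 46.7 and 43.0 CPM in KO control, 22.5, 19.7 and 17.3 CPM in WT TM and 68.3, 66.9 and 49.8 CPM in WT control neuron cultures, log2 differences of -0.99 in KO and -1.49 in WT. The Kv1 beta subunit genes Kcnab1 and Kcnab2 fell by 0.91 and 0.45 in KO and by 1.13 and 0.89 in WT.

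**Figure D4:**
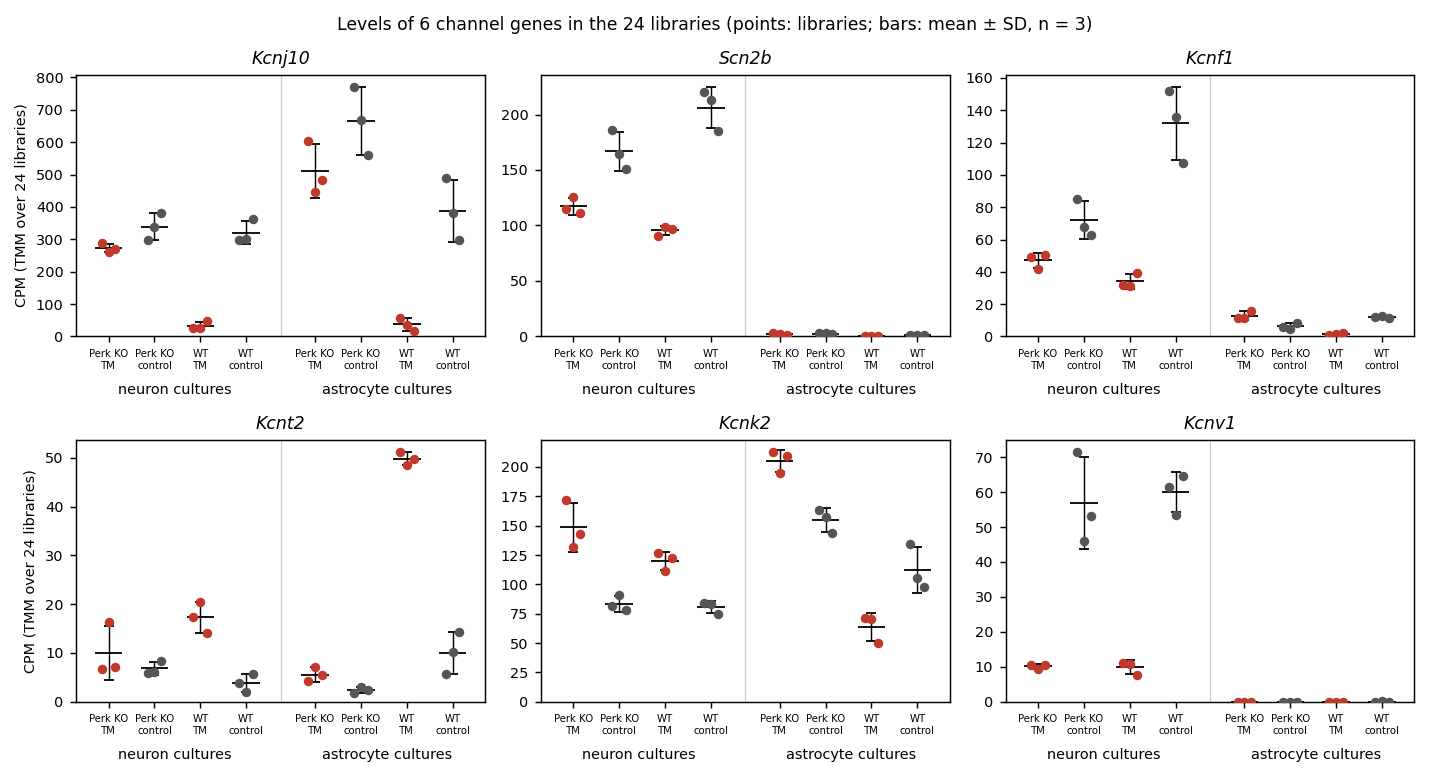
CPM of Kcnj10, Scn2b, Kcnf1, Kcnt2, Kcnk2 and Kcnv1 in each library, with KO TM, KO control, WT TM and WT control side by side, neuron cultures left of astrocyte cultures. Points are libraries and bars are mean ± SD (n = 3). For Kcnj10 the 3 WT TM libraries lie below the 9 others in each culture type.

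In WT astrocyte cultures falls again outnumbered rises, while in KO astrocyte cultures more members rose than fell. Of 67 members tested in WT, 8 rose and 37 fell under TM, against 25% and 27.7% of all genes tested (52.7% in either direction), with median log2 differences of -0.98 for members and -0.01 for all genes. Among the 58 members that averaged 10 counts or more in both groups, 8 rose and 30 fell. The summed member level was 706 to 786 CPM in WT TM and 1380 to 1629 CPM in WT control astrocyte cultures. In KO, 11 of 72 tested members rose and 3 fell, against 5.55% and 4.6% of all genes tested, and the sums were 1863 to 2072 CPM in KO TM and 1813 to 2136 CPM in KO control astrocyte cultures. The KO count was 25 (15 rises, 10 falls) with the replicate number as a block, 3 without KO TM replicate 2, 5 without KO control replicate 2 or 3, 6 without KO TM replicate 3 and 8 without KO control or TM replicate 1. Astrocyte markers summed to 1943 to 2600 CPM in KO TM, 3212 to 4310 CPM in KO control, 646 to 732 CPM in WT TM and 2344 to 3630 CPM in WT control astrocyte cultures (5 of 11 fell in KO, 9 of 11 in WT). Oligodendrocyte lineage markers summed to 473 to 549 CPM in KO TM, 466 to 548 CPM in KO control, 101 to 105 CPM in WT TM and 398 to 420 CPM in WT control (2 of 7 fell and 1 rose in KO, 4 of 6 fell in WT), and 1 of 8 microglial markers fell in KO and 5 of 8 in WT. The part of these markers was not tested.

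Of the 45 members called in WT and the 14 called in KO astrocyte cultures, 4 moved the same way in both (8.89% of the WT and 28.6% of the KO calls, against 13.3% and 68.0% for all genes tested): Kcnq5 and Kcnt2 rose, and Cacnb2 and Scn7a fell. Over all genes tested, 137 were called in opposite directions, of 7859 called in WT and 1539 in KO. Among members, another 7 fell in WT and rose in KO, namely Cacnb1, Kcnc1, Kcnd3, Kcnf1, Kcnk10, Kcnk2 and Kcnn2. With the replicate block, 12 moved the same way in both, Kcnj10 among them as a fall, and 10 moved in opposite directions, of 25 members called in KO and 51 in WT. Of the 11 unblocked KO calls, those of Kcnk10 and Kcnn2 were made with every library left out in turn. Of the WT falls just named, that of Kcnn2 was lost without control replicate 1 or any 1 TM library and was under the count filter without control replicate 3, and that of Cacnb1 without control replicate 2 or 3 or TM replicate 2 (highest edgeR adjusted p 0.116 and 0.0961).

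Kcnj10 had 604, 445 and 482 CPM in KO TM, 770, 670 and 560 CPM in KO control, 58.0, 36.1 and 18.3 CPM in WT TM and 488, 380 and 297 CPM in WT control astrocyte cultures. The WT TM libraries lay far below the 9 others. It fell by 3.39 in WT (SE 0.41, edgeR adjusted p = 0.000401), and the KO difference of -0.39 (SE 0.15) passed the threshold with the replicate number as a block (edgeR adjusted p = 0.0009) and not without it (edgeR adjusted p = 0.15). The responses differed by 2.99 (SE 0.45, edgeR adjusted p = 0.000397). Kcnj12 (Kir2.2) fell by 2.26 in WT (SE 0.29, edgeR adjusted p = 0.000531), at 1.31, 0.909 and 0.960 CPM in WT TM and 5.01, 4.03 and 6.01 CPM in WT control astrocyte cultures.

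Of the sodium channel genes of astrocyte cultures, Scn3b (a beta subunit) fell by 0.71 in WT and gave -0.13 in KO. The pore-forming subunit gene Scn2a fell by 1.38 in WT, at 3.77, 1.88 and 2.19 CPM in WT TM and 6.20, 7.68 and 6.32 CPM in WT control, and gave -0.21 in KO.

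Several Kv and auxiliary genes of astrocyte cultures had TM responses that differed between genotypes. Kcnf1 (Kv5.1) had 11.4, 11.5 and 15.8 CPM in KO TM, 6.14, 4.39 and 8.34 CPM in KO control, 0.628, 1.39 and 2.03 CPM in WT TM and 12.1, 12.4 and 11.1 CPM in WT control astrocyte cultures. It fell by 3.15 in WT (SE 0.35, edgeR adjusted p = 0.000283) and rose by 1.03 in KO (SE 0.24, edgeR adjusted p = 0.0281, highest 0.0858 without control replicate 1 or 2 or TM replicate 2 or 3), a difference of 4.16 (SE 0.45, edgeR adjusted p = 3.92e-05). Kcnc1 (Kv3.1, a fast delayed rectifier) had 24.2, 16.0 and 21.4 CPM in KO TM, 13.4, 11.3 and 11.2 CPM in KO control, 2.57, 2.42 and 3.89 CPM in WT TM and 13.3, 10.4 and 16.7 CPM in WT control astrocyte cultures. Its responses differed by 2.96 (SE 0.32, edgeR adjusted p = 4.28e-05). Kcnd3 (Kv4.3) had 201, 191 and 179 CPM in KO TM, 157, 137 and 125 CPM in KO control, 64.8, 70.3 and 55.9 CPM in WT TM and 139, 131 and 101 CPM in WT control, and its responses differed by 1.40 (SE 0.19, edgeR adjusted p = 0.00018). For these 3 genes the WT TM libraries were the lowest and the KO TM libraries did not overlap them. Kcnab1 (Kv beta1) fell by 2.26 in WT and gave values of 57.9, 42.6 and 43.4 CPM in KO TM and 54.6, 46.3 and 36.1 CPM in KO control astrocyte cultures, which overlapped.

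The TREK leak channel genes rose in KO and fell in WT astrocyte cultures. Kcnk10 (TREK-2) had 107, 108 and 100.1 CPM in KO TM, 63.6, 64.9 and 66.7 CPM in KO control, 45.9, 53.4 and 45.3 CPM in WT TM and 65.8, 74.9 and 67.9 CPM in WT control astrocyte cultures. It rose by 0.69 in KO (SE 0.08, edgeR adjusted p = 0.00106) and fell by 0.55 in WT (SE 0.11, edgeR adjusted p = 0.00377), and the groups did not overlap in either genotype. Kcnk2 (TREK-1) had 213, 195 and 209 CPM in KO TM, 163, 158 and 143 CPM in KO control, 71.2, 70.3 and 49.9 CPM in WT TM and 134, 105 and 97.4 CPM in WT control astrocyte cultures. It rose by 0.40 in KO (edgeR adjusted p = 0.0216, lost without control replicate 2 or 3 or any 1 TM library) and fell by 0.84 in WT (SE 0.18, edgeR adjusted p = 0.0061), where in WT neuron cultures it had risen. Kcnk1 (TWIK-1) had 81.6, 91.7 and 74.4 CPM in KO TM, 68.1, 72.6 and 61.4 CPM in KO control, a mean of 18.1 ± 5.39 CPM (SD, n = 3, edgeR test) in WT TM and 55.7, 52.7 and 37.2 CPM in WT control astrocyte cultures. It fell by 1.45 in WT (SE 0.25, edgeR adjusted p = 0.00208) and gave 0.29 in KO (edgeR adjusted p = 0.154 without and 0.00402 with the replicate block). Kcnn2 (SK2), at 3.68, 2.89 and 4.18 CPM in KO TM and 1.28, 1.10 and 1.14 CPM in KO control, rose by 1.60 in KO (SE 0.27, edgeR adjusted p = 0.00562).

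Among calcium channel subunit genes of astrocyte cultures, 1 of 4 beta subunit genes rose and 1 fell in KO, while all 4 fell in WT. Of 7 alpha1 genes tested in WT, 4 fell. Over all genes tested, 5.55% rose and 4.6% fell in KO, and 27.7% fell in WT. Cacna1a had 123, 123 and 139 CPM in KO TM, 116, 114 and 103 CPM in KO control, 67.4, 76.8 and 72.4 CPM in WT TM and 97.2, 111 and 99.5 CPM in WT control astrocyte cultures. The WT TM libraries were the lowest, with a fall of 0.53 in WT (SE 0.10, edgeR adjusted p = 0.00321, a fall of 0.32 with the GC correction) and a log2 difference of 0.21 in KO (edgeR adjusted p = 0.221 without and 0.0489 with the replicate block). Cacna1d fell by 1.89 in WT (SE 0.25, edgeR adjusted p = 0.000612) and gave -0.17 in KO, with the overlap with Dcp1a named above.

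The rises in WT astrocyte cultures were led by Kcnt2 and the Kv7 gene Kcnq5. Kcnt2 had 4.20, 7.11 and 5.43 CPM in KO TM, 1.76, 2.96 and 2.44 CPM in KO control, 51.2, 48.5 and 49.9 CPM in WT TM and 5.68, 10.3 and 14.2 CPM in WT control astrocyte cultures. TM libraries lay above controls in both genotypes, and KO libraries lay below WT libraries at the same treatment. It rose by 1.22 in KO (SE 0.28, edgeR adjusted p = 0.0266, highest 0.118 without control replicate 1 or 3 or TM replicate 2 or 3) and by 2.29 in WT (SE 0.28, edgeR adjusted p = 0.000422). Kcnq5 (Kv7.5) had 5.10, 4.94 and 6.96 CPM in KO TM, 3.36, 3.07 and 3.09 CPM in KO control, 25.5, 38.5 and 37.6 CPM in WT TM and 4.78, 9.37 and 10.2 CPM in WT control astrocyte cultures. It rose by 0.83 in KO (edgeR adjusted p = 0.0422, lost on leaving out any 1 of the 6 libraries) and by 2.04 in WT (SE 0.29, edgeR adjusted p = 0.000778). Kcnj4 (Kir2.3) rose by 0.87 and Kcnh5 (Kv10.2) by 0.75 in WT. A processed pseudogene on the same strand, Gm7658, overlaps Kcnq5 and holds 10.1% as many counts.

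Comparing genotypes under TM directly, 27 of 105 members were higher and 13 lower in KO than in WT TM neuron cultures, against 20.7% and 19.4% of all genes tested (40.1% in either direction). The share of members called in either direction, 38.1%, was near that of all genes. Beside Kcnj10 (log2 difference 3.06) and Cacng5 (2.91), Kcnn3 (1.28), Kcnj16 (Kir5.1, 1.08), Kcnn2 (1.06) and Kcnj9 (0.89) were higher in KO, and Kcng1 (-1.75), Kcns3 (Kv9.3, -1.20), Kcnq5 (-1.04) and Cacng3 (-0.55) were lower. Kcnk2 (0.30) passed the threshold with the replicate block and not without it (edgeR adjusted p = 0.0344 with it and 0.0949 without). All 12 astrocyte markers were higher in KO TM neuron cultures, as were 5 of 8 tested for the oligodendrocyte lineage (1 was lower), 4 of 5 for microglia and 5 of 8 for fibroblasts and mural cells, and their part was not tested.

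Between TM-treated astrocyte cultures, 45 of 69 members were higher and 10 lower in KO than in WT, against 32.1% and 31.2% of all genes tested (63.3% in either direction), with median log2 differences of 1.34 and 0.01. Among the 58 members averaging 10 counts or more in both groups, 35 were higher and 10 lower. Besides Kcnj10 (3.80, SE 0.37, edgeR adjusted p = 5.64e-05), the higher genes included Kcnf1 (3.27), Kcnc1 (2.82), Kcna6 (2.75), Kcnab1 (2.64), Kcnk1 (2.23) and Kcnn3 (2.15). Kcnj13 (Kir7.1) had 94 counts over the KO TM and 2 counts over the WT TM libraries, but it lies within Gigyf2 on the opposite strand, a gene with far more counts. Kcnt2 (-3.13), Kcnq5 (-2.55), Kcnip1 (-1.68), Cacna1b (-1.62), Kcnc2 (-1.43) and Kcnj4 (-1.28) were lower in KO. The 10 called astrocyte markers of 11 tested were all higher in KO, as were 5 of 8 oligodendrocyte lineage markers.

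Without TM, KO and WT cultures differed in fewer channel genes. In control neuron cultures, 12 of 106 members were higher and 12 lower in KO, near the 12.2% and 9.16% of all genes tested, and every such call was lost when at least 1 library was left out. The count was 38 without WT control replicate 3, 7 and 11 without WT control replicates 1 and 2, and 13, 4 and 1 without KO control replicates 1, 2 and 3. Kcnip3 (-0.90), Kcng1 (-0.84), Kcnf1 (-0.82), Kcnab2 (-0.64) and Kcnj4 (-0.60) were lower in KO, and Kcna3 (Kv1.3, 1.91) and Cacnb4 (1.31) higher. Kcna3 had 14.9, 13.3 and 19.0 CPM in KO and 4.42, 2.26 and 6.42 CPM in WT control neuron cultures. Of the markers, 6 of 8 for fibroblasts and mural cells and 5 of 11 for astrocytes were higher in KO control neuron cultures and 7 of 15 for neurons were lower, and their part was not tested.

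In control astrocyte cultures, 5 of 70 members were higher and 7 lower in KO, against 4.71% and 10.2% of all genes tested, and 16 higher and 10 lower with the replicate block. All calls were lost without WT control replicate 2; 19 were made without WT control replicate 1, and 4 without WT control replicate 3 or KO control replicate 1 or 2. Kcnq3 had 0.534, 1.21 and 0.812 CPM in KO and 3.64, 12.3 and 11.7 CPM in WT control astrocyte cultures, groups that did not overlap (log2 difference -3.42, SE 0.52, edgeR adjusted p = 0.0102). Kcnt2 (-2.07), Kcnq5 (-1.34) and Cacnb1 (-1.16) were lower too, and Kcnj10 (0.79) and Kcna6 (0.84) higher. Of the neuronal markers, 3 of 9 tested were lower in KO control astrocyte cultures, and 3 of 11 astrocyte markers were higher; their part was not tested.

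The difference between the genotypes' TM responses passed the threshold for 30 of 106 members in neuron cultures, 21 of them positive (a less negative or more positive response in KO) and 9 negative, against 14.5% and 15.4% of all genes tested (29.8% in either direction). In astrocyte cultures it did so for 36 of 70 members, 35 positive and 1 negative, against 19.8% and 14.6% of all genes tested (34.4% in either direction), and the median was 1.22 for members and 0.01 for all genes. Of the 56 members averaging 10 counts or more in all 4 astrocyte groups, 27 were positive and 1 negative. Kcnj10, Kcnf1, Kcnip3 and Kcnn3 were positive in both culture types.

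The TM responses of WT neuron and WT astrocyte cultures differed for 27 of 102 members, 17 of them positive (more positive in neuron cultures) and 10 negative, against 12.4% and 12.5% of all genes tested (24.9% in either direction). Of the 57 members averaging 10 counts or more in all 4 groups, 13 were positive and 7 negative. Kcna6 rose in neuron and fell in astrocyte cultures, at 1.71, 1.88 and 1.87 CPM in TM and 10.5, 9.70 and 6.69 CPM in control WT astrocyte cultures, a difference of 2.70 (SE 0.27, edgeR adjusted p = 4.83e-05). Kcnk2 differed by 1.38 (SE 0.22, edgeR adjusted p = 0.000818), and Kcnc1 and Kcnj12 by 1.74 each. Kcnj4 fell by 0.61 in WT neuron cultures and rose in WT astrocyte cultures, a difference of -1.65 (SE 0.22, edgeR adjusted p = 0.000255). For Kcnj10 the responses were not distinguished (0.07, SE 0.49, edgeR adjusted p = 0.943). The 86 members higher in neuron cultures had 5 rises and 49 falls under TM in WT neuron cultures, and 6 rises and 24 falls among the 49 of them tested in WT astrocyte cultures. The 10 members higher in astrocyte cultures had 2 rises and 2 falls among the 8 tested in WT neuron cultures, and 2 rises and 6 falls in WT astrocyte cultures. Over all genes tested, 27% rose and 24.8% fell in WT neuron cultures, and 25% and 27.7% in WT astrocyte cultures. The WT control libraries are shared between the grouping by culture type and the TM comparisons.

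Genes that work beside these channels were taken from a list of 23 (HCN pacemaker channels, the NALCN leak complex, intracellular FGFs, Kv4 partners, ankyrins and other proteins of the axon initial segment and node, and the repressor Rest). In neuron cultures 0 rose and 7 fell of 23 in KO, against 13.1% and 10.8% of all genes tested. In WT 2 rose and 11 fell of 23, against 27% and 24.8%. Rest, a repressor of neuronal channel genes, averaged 19.3 ± 2.69 CPM in KO TM, 16.0 ± 2.24 CPM in KO control, 22.1 ± 1.11 CPM in WT TM and 12.9 ± 1.43 CPM in WT control neuron cultures (SD, n = 3 each, edgeR test), and rose by 0.92 in WT (SE 0.13, edgeR adjusted p = 0.000534). Hcn4 rose by 0.82 in WT, and Fgf13 (which binds sodium channels) and Lgi1 (a secreted epilepsy gene product) fell in both genotypes. In astrocyte cultures 1 rose and 1 fell of 21 tested in KO, near the 5.55% and 4.6% of all genes tested. In WT 1 rose and 7 fell of 18, against 25% and 27.7%, with Cntnap2 at -2.66 and Nalcn at -1.72.

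The sodium pump restores the ion gradients that channels run down. Of its 6 subunit genes, 0 rose and 1 fell in KO and 0 rose and 5 fell in WT neuron cultures. In astrocyte cultures 0 rose and 1 fell in KO and 0 rose and 6 fell in WT. Over all genes tested, 13.1% rose and 10.8% fell in KO and 27% and 24.8% in WT neuron cultures. The shares were 5.55% and 4.6% in KO and 25% and 27.7% in WT astrocyte cultures. In astrocyte cultures Atp1b2 (a glial beta subunit) fell by 1.08 in KO and by 3.74 in WT (edgeR).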

How the data were processed

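Gene counts of 24 libraries were made by the authors before they deposited them, with fastp, HISAT2, featureCounts and build GRCm38.p6, per the submitters' processing notes; versions, strand setting and annotation release are not given in the sources used here, and the kit is not stated to mark strand. Fold changes on the log2 scale and p-values in those files are the authors' own, from DESeq2 per the same notes, and gave no result here.

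Counts were joined on gene ID and tested with edgeR 4.0.16 (quasi-likelihood, TMM, genes averaging at least 10 counts over the libraries fitted, Benjamini-Hochberg adjustment over all genes tested, threshold 0.05) in R 4.3.3, each comparison on its own groups. The fits were tested on simulated data. The alternatives were DESeq2 1.42.0, its size factors in edgeR, no filter, a replicate block, a GC offset over 20 bins, both together, 1 fit of all libraries of a culture type, and each library left out. Between libraries of 1 group the chi-square of counts per gene was 7.06 to 70.6, where counting noise alone gives about 1.

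Members and lists were chosen with earlier results of these data known. Named in each comparison were a core set of subunit genes where measured, the 6 widest rises and falls among calls averaging at least 100 counts with no overlap between groups, up to 2 per class by smallest p, the 10 highest per kilobase in WT controls, and up to 4 of each partner list. Genes outside these (Kcng4, Kcnj13, Kcnn2 and members listed for both genotypes) were named after their values were seen. A few of the genes chosen in this way are not reported here.

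Same-numbered libraries deviated together in the 4 astrocyte comparisons (correlations 0.192 to 0.490) and over all astrocyte groups (0.189 to 0.490). They did so too between genotypes under TM in neuron cultures (0.128 to 0.316), and all these correlations were above 0.1. The reported counts, SE and p-values come from fits without a block, so they leave this pairing out. The replicate block was run as an alternative only, and blocked values stand beside some of the results that it changed.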

Additional observations from a re-analysis of the deposited data

Results flagged for a closer look

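The TM response differed between Perk KO and WT for 30 members in neuron cultures and for 36 in astrocyte cultures, by the test of the difference between the responses (edgeR, adjusted p under 0.05), and between WT neuron and WT astrocyte cultures for 27. These were 28.3%, 51.4% and 26.5% of the members tested, against 29.8%, 34.4% and 24.9% of all genes tested, so the first and the last lay near the share of all genes. Values below are log2 differences between responses, KO minus WT or neuron minus astrocyte.

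In neuron cultures the response in KO lay above that in WT for Kcnj10 (2.86), Cacng5 (2.77), Kcnip3 (1.44), Kcnn3 (1.25) and Kcnf1 (1.21). It lay below for Kcnt2 (-1.74), Kcng1 (-0.98), Kcnq5 (-0.78), Cacnb2 (-0.76) and Kcna6 (-0.72). Of these last 5, all but Kcng1 lost the call when at least 1 library was left out, with highest edgeR adjusted p of 0.076 for Kcnt2 (any of 7 libraries), 0.0595 for Kcnq5 (any of 5), 0.0653 for Cacnb2 (any of 5) and 0.0518 for Kcna6 (KO control replicate 2). Of the astrocyte markers, 10 of 11 tested had a response in KO above that in WT and 0 below, and of the oligodendrocyte lineage markers 6 of 9 lay above and 1 below; their part was not tested.

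In astrocyte cultures the response in KO lay above that in WT for Kcnf1 (4.16), Kcnj10 (2.99), Kcnc1 (2.96), Kcnab1 (2.31) and Kcna6 (1.89). It lay below for Kcnq5 (-1.23), a call lost without WT TM replicate 2 or 3 or KO TM replicate 1 or 2 (highest edgeR adjusted p 0.0572). Of the astrocyte markers, 6 of 11 lay above.

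Between the WT culture types, the response of neuron cultures lay above that of astrocyte cultures for Kcna6 (2.70), Kcnh3 (2.02), Kcnc1 (1.74), Kcnj12 (1.74), Cacnb4 (1.66) and Cacna1d (1.64). It lay below for Kcnq5 (-2.19), Kcnc2 (-1.89), Kcnip1 (-1.71), Kcnj4 (-1.65) and Scn8a (-1.15). Kcnh3 passed the filter through its neuron counts, and had 1, 1 and 2 counts in TM and 20, 16 and 17 counts in control WT astrocyte libraries. The Cacnb4 call was lost without any of 7 libraries, and the Scn8a call without astrocyte control replicate 1 or TM replicate 3 (highest edgeR adjusted p 0.0672 and 0.0646).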

How the results depend on the processing

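Counts of channel genes called kept within 1.5 times their value under every alternative, except in 4 comparisons. For TM in KO neuron cultures the count was 36, and 17 to 56 with 1 library left out. For TM in KO astrocyte cultures it was 14, and 25 with the replicate block, 25 with the block and GC correction, 9 in the fit of all libraries of the culture type, and 3 to 8 with 1 library left out. Between KO and WT control neuron cultures it was 24, and 38 with the block, 37 with the block and GC correction, and 1 to 38 with 1 library left out. Between KO and WT control astrocyte cultures it was 12, and 26 with the block, 27 with the block and GC correction, and 0 to 19 with 1 library left out. Kcnb2 changed direction between KO and WT control neuron cultures, at 0.68 in the reported fit, -0.112 with GC correction (edgeR adjusted p = 0.529) and -0.113 with the block and GC correction (edgeR adjusted p = 0.509); the cause was not tested. Named gene results were counted once per fit, so 1 gene can count many times. Over all fits with 1 library left out, 3384 were the same, 384 calls were lost and 60 gained. DESeq2 lost 1 and gained 17, with 492 the same. Where same-numbered libraries did not deviate together, the block gave 58 calls for TM in WT and 35 in KO neuron cultures. Beside the overlap stated above, these calls are given as counts only. Members with any single overlapping gene that held over 10% as many counts were also left out. This gave 6 rises and 50 falls of 92 for TM in WT neuron cultures. In WT astrocyte cultures it gave 7 rises and 33 falls of 60.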
